A study of Mus musculus with 20 samples.

Results

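The genes described here are 9 that mark megakaryocytes and platelets: Pf4, Ppbp, Gp9, Gp1bb, Gp5, Gp6, Itga2b, Itgb3 and Vwf. They are 9 of the 18193 genes that had a probe set annotated to them alone. Each gene was read from its probe set with the highest mean over the 20 arrays. All 9 genes had such a probe set, and no filter on low values was applied.

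The 20 arrays measured RNA of erythroid progenitors at the CFU-E stage, the colony-forming cells that depend on erythropoietin (Epo) for survival and division. The cells came from fetal livers of BALB/c mouse embryos at embryonic day 13.5. One series of 12 arrays received 0.5 U/ml Epo and was collected at each hour from 0 to 8 h and at 14, 19 and 24 h. The other series of 8 arrays received no Epo and was collected at each hour from 0 to 7 h. Each treatment and hour had 1 array, so hours served as the replicates. The labels do not say whether each array had a culture of its own, and p-values therefore measure the spread between these arrays, which may be technical. The labels describe the cells both as starved shortly before stimulation and as held with Epo beforehand, so what the 0 h arrays of either series had received is not settled. All groups shared the same sort, which discarded cells that bound antibodies against myeloid, lymphoid and late erythroid surface proteins, and against CD41. CD41 is the protein encoded by Itga2b, so cells with this megakaryocyte integrin on their surface were depleted by design.

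Megakaryocytes are the bone marrow and fetal liver cells that shed platelets, and they arise from a progenitor that they share with the erythroid lineage. Platelets carry chemokines and von Willebrand factor in granules. They stick to damaged vessels through the glycoprotein Ib-IX-V complex, which binds von Willebrand factor, and through the collagen receptor glycoprotein VI. They then aggregate through the integrin made of the Itga2b and Itgb3 chains, which binds fibrinogen. Transcription factors of the GATA, ETS and RUNX families control many of these genes in megakaryocytes.

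At the late hours under Epo, 4 of the 9 genes were higher than at 1 to 8 h, namely Pf4, Gp9, Vwf and Gp6. Over all genes, 36.2% were called in the same comparison, 17.6% higher and 18.5% lower (limma, Benjamini-Hochberg adjusted p under 0.05). None of the 9 was called lower, and none was at an unadjusted p under 0.05 in that direction. The median late difference of the 9 genes was 0.23 on the log2 scale, beside 0.08 over all genes tested. Pf4 had the largest difference of the 9, and it alone was also called upward over the first 7 h under Epo. With time on a log scale that early call was lost, and Pf4 was called upward without Epo instead. Over 1 to 7 h alone it was called upward with Epo and not without. No array without Epo was taken after 7 h, so the late hours carry Epo and time in culture together, and their parts cannot be told apart.

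**Figure D1:**
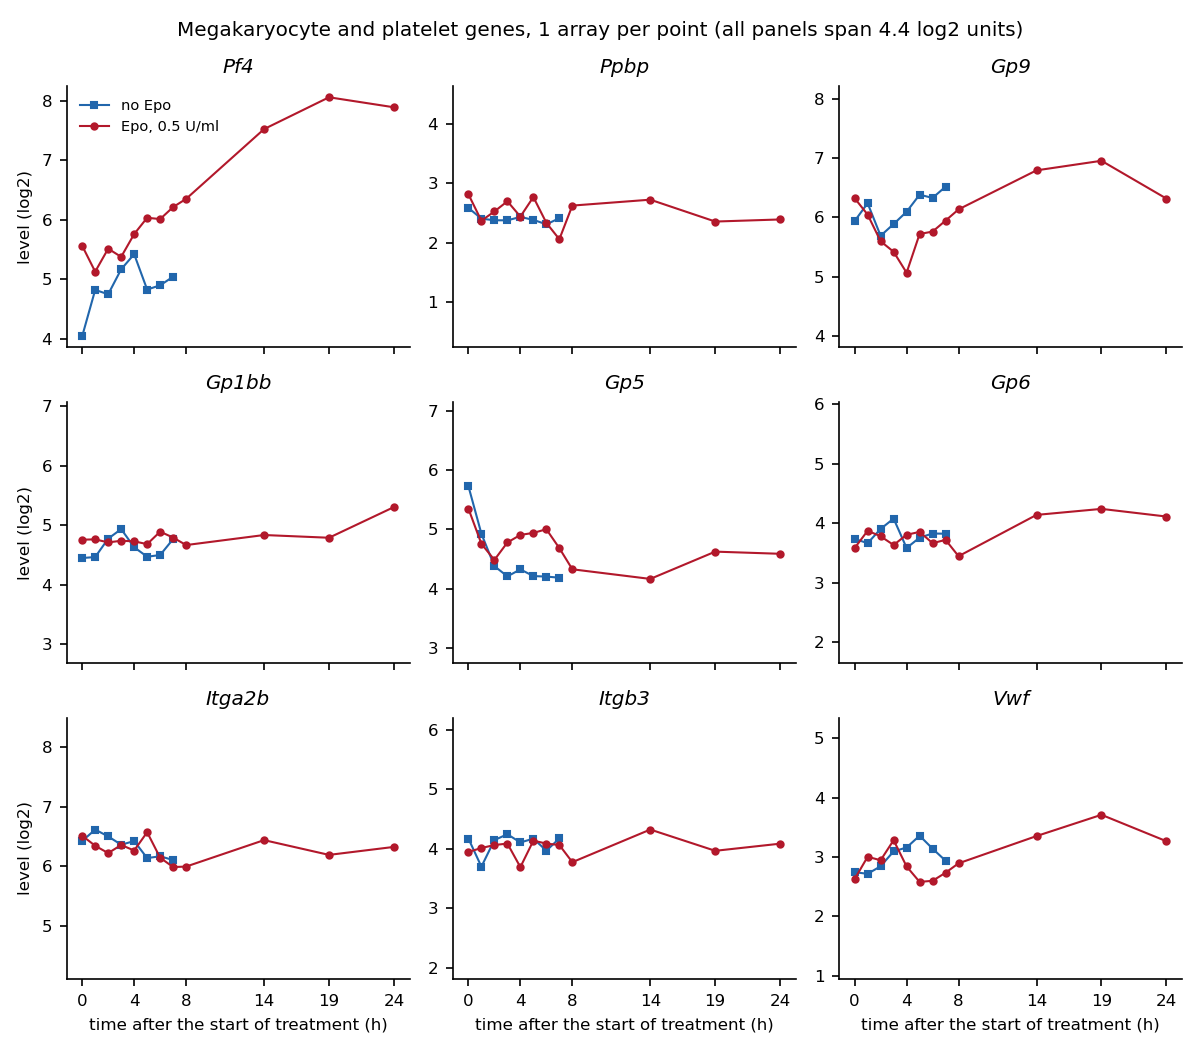
Log2 array values (vertical axis) of the 9 genes against hours of culture (horizontal axis), 1 panel a gene, with 1 point for each array with Epo or without Epo. Pf4 lies between 5.13 and 6.35 from 0 to 8 h under Epo and between 7.53 and 8.06 at 14 to 24 h, while Ppbp and Itgb3 stay within a narrow band.

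Between 1 and 7 h, with the 7 hours as matched pairs, 2 of the 9 genes were higher with Epo, Pf4 and Gp5, and 1 was lower, Gp9. The background was high, with 38.4% of all genes called, 18.2% higher and 20.2% lower, so the count among the 9 was near it. The median difference of the 9 genes was -0.04, beside 0.03 over all genes. Centring each array on its own median changed the split of calls over all genes from 3312 higher and 3669 lower to 2389 and 4476. In the late comparison the same centring changed it from 3207 higher and 3372 lower to 2202 and 3738. The calls of the 9 genes were the same under that centring in both comparisons.

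Trends over the hours were fewer. Without Epo, 2 of the 9 genes fell from 0 to 7 h, Gp5 and Itga2b, beside 15.4% of all genes that fell and 28.7% called in either direction. None was called higher, beside 13.3% of all genes, and 2 of the 9 were at an unadjusted p under 0.05 in that direction in limma. With Epo, Pf4 alone was called over 0 to 7 h, upward, beside 2.21% of all genes called upward, 5.88% downward and 8.09% in all. No gene of the 9 was at an unadjusted p under 0.05 downward. For the difference between the slopes of both series over 1 to 7 h, limma called 0 of the 9 genes, beside 15.2% of all genes (7.25% higher and 7.97% lower), and 3 of the 9 were at an unadjusted p under 0.05.

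**Figure D2:**
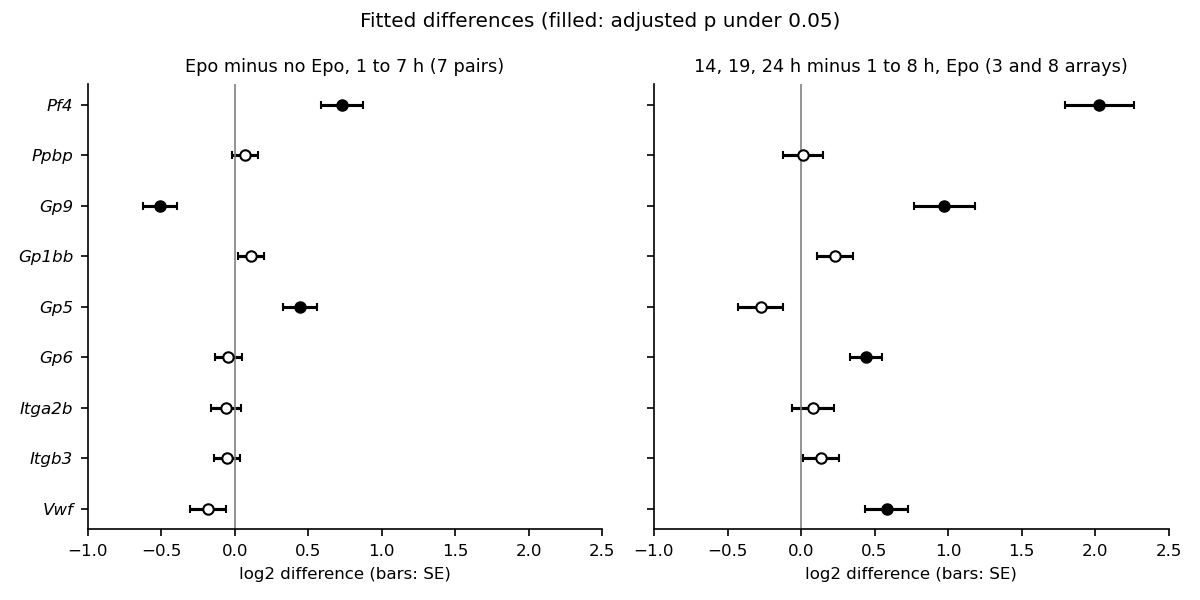
Fitted log2 differences of the 9 genes (horizontal axes) for Epo minus no Epo at 1 to 7 h (left) and for 14, 19 and 24 h minus 1 to 8 h under Epo (right), with standard errors as bars and filled points for a limma adjusted p under 0.05. Pf4 stands at 2.03 in the late comparison and at 0.73 between Epo and no Epo, Gp9 has opposite signs in these comparisons (0.97 and -0.51), and Ppbp and Itgb3 have no call.

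Pf4 and Ppbp encode chemokines that platelets store in granules and release when activated. The genes are neighbours, with starts 3917 bases apart on chromosome 5 in the same direction. Their promoters are shown because the neighbours gave different readings on these arrays. Each sequence is the RefSeq window on GRCm38.p6 from 250 bases before to 50 bases after the start, 5′ to 3′ on the gene's strand, and capitals mark the motif matches described after them. The windows are chr5:90772185-90772484 on the plus strand for Pf4 and chr5:90768268-90768567 on the plus strand for Ppbp.
Pf4: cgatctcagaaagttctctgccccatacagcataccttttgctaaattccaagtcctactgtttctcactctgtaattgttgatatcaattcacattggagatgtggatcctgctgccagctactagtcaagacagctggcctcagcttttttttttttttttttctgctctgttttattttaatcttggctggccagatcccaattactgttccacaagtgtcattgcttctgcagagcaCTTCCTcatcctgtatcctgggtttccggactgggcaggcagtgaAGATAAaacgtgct
Ppbp: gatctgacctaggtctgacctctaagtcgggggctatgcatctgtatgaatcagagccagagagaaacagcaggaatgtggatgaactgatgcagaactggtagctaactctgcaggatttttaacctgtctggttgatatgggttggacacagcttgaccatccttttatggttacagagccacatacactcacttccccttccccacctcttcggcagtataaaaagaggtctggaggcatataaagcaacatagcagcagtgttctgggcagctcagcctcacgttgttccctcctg

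The motifs searched, on both strands, were AGATAA and TGATAA for GATA factors, AGGAAG and CGGAAG for ETS factors, and TGTGGT and TGCGGT for RUNX factors. Of the 9 genes, 7 had a promoter in the RefSeq table. The Pf4 window holds a GATA match 37 bases after the start and an ETS match 9 bases before it. The Ppbp window holds none of these letters, which says only that they are not in this window. Over 32851 mouse promoter windows of 300 bases, 18.6% held a GATA match, 46.5% an ETS match and 22.4% a RUNX match. Among the 7 windows of these genes, 3 held a GATA match, 5 an ETS match and 1 a RUNX match. A match is a description of the letters and not a measured binding site.

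Pf4 without Epo read 4.04, 4.82, 4.75, 5.17, 5.42, 4.83, 4.90 and 5.04 from 0 to 7 h (log2). With Epo it read 5.56, 5.13, 5.51, 5.38, 5.76, 6.04, 6.01, 6.21 and 6.35 from 0 to 8 h, then 7.53, 8.06 and 7.89 at 14, 19 and 24 h. The 3 late arrays lay above every other array of the study, and at each hour the array with Epo lay above its partner without. The ranges of both series at 1 to 7 h nevertheless overlapped.

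The late difference of Pf4 was 2.03 ± 0.23 (log2, SE, 3 late arrays against 8; limma adjusted p = 3.4e-05), a 4.08-fold higher level. It was called under all 22 alternatives tried, with differences from 1.63 to 2.90 in those that give a difference rather than a slope. In the early hours with Epo, Pf4 rose by 0.13 ± 0.031 per hour (adjusted p = 0.018), or 0.91 ± 0.22 over 7 h. That early rise lost its call when the array of 1, 6 or 7 h was left out or when time was taken on a log scale, with slopes from 0.11 to 0.18 and adjusted p up to 0.088 over the alternatives. Without Epo its slope was 0.094 per hour (adjusted p = 0.15), and the difference between the slopes was 0.15 per hour (adjusted p = 0.071). With time on a log scale, Pf4 was called upward without Epo and not with Epo. Over 1 to 7 h alone, with time on a linear scale, it was called upward with Epo and not without. Which series had the called rise thus rested on the setting, and the difference between the slopes was not called.

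Pf4 was higher with Epo by 0.73 ± 0.14 over 1 to 7 h (adjusted p = 0.0017), in 7 of 7 hours, as 14.1% of all genes were. The gap was present at the start: at 0 h the array with Epo read 1.52 above the array without, more than at any later matched hour, where the gaps ran from 0.21 to 1.21. Of the 9 genes Pf4 was the one that differed by at least 1 at 0 h in either direction, beside 3.03% of all genes. Measured from each series' own 0 h, the difference turned to -0.79 (adjusted p = 0.64), so the Epo effect on Pf4 depends on whether the 0 h arrays are taken as the baseline.

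Ppbp was dim on every array. Without Epo it read 2.58, 2.40, 2.38, 2.37, 2.43, 2.38, 2.31 and 2.41 from 0 to 7 h. The series with Epo read 2.81, 2.37, 2.52, 2.69, 2.44, 2.77, 2.33, 2.06 and 2.62 from 0 to 8 h, and 2.72, 2.35 and 2.39 at the late hours. The series overlapped throughout, and its late difference was 0.01 ± 0.14 (adjusted p = 0.95). The neighbouring genes thus gave a called late difference for Pf4 and none for Ppbp, and the difference between them was not tested. Ppbp had a mean of 2.47 over the 20 arrays. The silent receptor probe sets described below with Gp6 and Vwf had a median of 2.55 on average over the arrays. At that level the missing call does not show that Ppbp was unchanged.

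Gp9, Gp1bb and Gp5 encode subunits of the glycoprotein Ib-IX-V complex, the platelet receptor for von Willebrand factor. Gp9 and Gp1bb are small chains needed for the complex to reach the surface, and Gp5 is the chain that thrombin cleaves. The promoters of Gp9 (chr6:87777820-87778119, plus strand), Gp1bb (chr16:18622354-18622653, minus strand) and Gp5 (chr16:30310732-30311031, minus strand) are shown because these subunits of a shared receptor gave 3 different time courses.
Gp9: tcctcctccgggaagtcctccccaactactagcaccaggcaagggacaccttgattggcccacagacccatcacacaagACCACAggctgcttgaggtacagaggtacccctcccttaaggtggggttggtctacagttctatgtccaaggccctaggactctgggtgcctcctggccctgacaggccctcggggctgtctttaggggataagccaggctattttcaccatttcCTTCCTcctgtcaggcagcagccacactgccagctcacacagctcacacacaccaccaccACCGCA
Gp1bb: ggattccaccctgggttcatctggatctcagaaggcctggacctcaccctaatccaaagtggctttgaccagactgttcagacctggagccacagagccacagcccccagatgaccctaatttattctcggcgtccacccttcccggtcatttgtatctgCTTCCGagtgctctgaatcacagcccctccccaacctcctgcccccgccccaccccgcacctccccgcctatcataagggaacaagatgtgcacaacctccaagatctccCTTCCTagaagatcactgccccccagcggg
Gp5: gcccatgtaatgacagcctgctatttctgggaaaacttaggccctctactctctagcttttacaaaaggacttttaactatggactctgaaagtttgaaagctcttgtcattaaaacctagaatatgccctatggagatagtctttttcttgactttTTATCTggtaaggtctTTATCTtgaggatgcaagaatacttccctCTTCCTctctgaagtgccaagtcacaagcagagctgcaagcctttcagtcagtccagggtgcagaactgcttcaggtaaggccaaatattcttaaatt

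The Gp9 window holds an ETS match 16 bases before the start and RUNX matches 171 bases before and 45 bases after it. The Gp1bb window holds ETS matches 90 bases before and 21 bases after the start. The Gp5 window holds GATA matches 93 and 77 bases before the start and an ETS match 48 bases before it. All 3 windows and that of Pf4 share an ETS match, the motif that nearly as many windows hold as lack it over the genome.

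Gp9 without Epo read 5.94, 6.24, 5.69, 5.89, 6.10, 6.38, 6.33 and 6.52 from 0 to 7 h. Under Epo the values were 6.32, 6.05, 5.60, 5.42, 5.07, 5.72, 5.76, 5.95 and 6.14 from 0 to 8 h, and 6.79, 6.95 and 6.32 at 14, 19 and 24 h. Under Epo the lowest array was that of 4 h, and the values after it were higher up to 19 h. At 24 h the gene was back at its 0 h value of the same series.

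With Epo, Gp9 was lower than without by -0.51 ± 0.11 over 1 to 7 h (limma adjusted p = 0.0042), in 7 of 7 hours, as 15.2% of all genes were. At 0 h the array with Epo had been 0.38 higher, and from each series' own 0 h the difference was -0.90 (adjusted p = 0.60). At the late hours Gp9 was higher by 0.97 ± 0.21 than at 1 to 8 h under Epo (adjusted p = 0.0022), a 1.96-fold change. Against the arrays without Epo at 5 to 7 h the late arrays were 0.28 higher, which did not pass the test (adjusted p = 0.28). The late level of Gp9 was therefore called against the early hours under Epo and not against the last hours without it.

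Gp5 without Epo read 5.73, 4.93, 4.38, 4.21, 4.33, 4.21, 4.21 and 4.19 from 0 to 7 h. With Epo it read 5.35, 4.76, 4.49, 4.78, 4.91, 4.94, 5.00, 4.68 and 4.33 from 0 to 8 h, and 4.17, 4.63 and 4.59 at the late hours. Both series were highest at 0 h, and their ranges over 1 to 7 h overlapped.

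Gp5 was higher with Epo by 0.44 ± 0.12 over 1 to 7 h (limma adjusted p = 0.011), in 6 of 7 hours, though at 0 h it was lower by -0.38. From each series' own 0 h the difference was 0.82 (adjusted p = 0.62). Without Epo it fell by 0.18 ± 0.044 per hour (adjusted p = 0.0100), or -1.23 ± 0.31 over 7 h. Without the 0 h array the slope was -0.092 per hour and lost the call (adjusted p = 0.068). Late under Epo, Gp5 differed by -0.28 ± 0.16 from 1 to 8 h (adjusted p = 0.18).

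Markers of other cells moved beside Gp5 over the same hours. The mean log2 value of 9 neutrophil genes was 6.46 at 0 h without Epo and 4.91 at 7 h, and 5.42 and 4.92 at the same hours with Epo. Without Epo 5 of these 9 fell. All 8 hepatocyte genes fell in both series, with a list mean of 9.36 at 0 h and 7.41 at 7 h without Epo and of 10.65 and 8.27 with Epo. Over 1 to 7 h, 6 of these 8 were higher with Epo, beside 18.2% of all genes, with a median difference of 0.88. Gp5 and Pf4 were higher too, while of 8 erythroid genes 0 were higher and 5 lower, beside 20.2% of all genes lower. Over 0 to 7 h under Epo the hepatocyte median change was -2.11, beside 0.91 for Pf4 and -0.16 for Gp5, which had no call. The part of these changes in the Gp5 and Pf4 values was not tested. In such bulk samples, fewer cells of a type and less RNA per cell cannot be told apart.

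Gp1bb was read by 2 probe sets of its own, and they disagreed. The brighter of them, which the selection takes, read 4.45, 4.46, 4.77, 4.93, 4.63, 4.47, 4.50 and 4.77 without Epo from 0 to 7 h. In the Epo series it read 4.76, 4.76, 4.71, 4.74, 4.73, 4.68, 4.89, 4.79 and 4.67 from 0 to 8 h, and 4.83, 4.79 and 5.31 at the late hours. Under Epo this probe set stayed between 4.67 and 4.89 from 0 to 8 h and was highest at 24 h. Without Epo it ran from 4.45 to 4.93. Its late difference was 0.23 ± 0.12 (limma adjusted p = 0.16) and its Epo difference was 0.11 (adjusted p = 0.37).

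The dimmer probe set of Gp1bb read 2.97, 3.38, 3.34, 3.47, 4.39, 4.43, 4.20 and 4.23 without Epo from 0 to 7 h. With Epo it read 3.03, 2.90, 3.51, 2.95, 3.31, 3.05, 2.92, 2.91 and 3.35 from 0 to 8 h, and 3.72, 4.00 and 3.80 at the late hours. It was higher at 4 to 7 h without Epo than at those hours with Epo, and its 3 late arrays lay above all arrays of 0 to 8 h under Epo. All of its values were dim, as described below with Gp6 and Vwf.

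Fitted in the table of all probe sets, this dimmer probe set was lower with Epo by -0.84 ± 0.17 over 1 to 7 h (limma adjusted p = 0.0019). It rose without Epo by 0.20 ± 0.037 per hour (adjusted p = 0.0014) and was higher at the late hours under Epo by 0.73 ± 0.14 (adjusted p = 0.0015). Its slopes differed between the series by -0.22 ± 0.055 per hour (adjusted p = 0.014). The brighter probe set had the opposite sign between Epo and no Epo and the same sign at the late hours, with no call in either, so the direction of Gp1bb between Epo and no Epo rests on which probe set is read. A further probe set names both Septin5 and Gp1bb and was left out of the gene's values. It lay between 2.83 and 3.72 on all arrays.

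**Figure D3:**
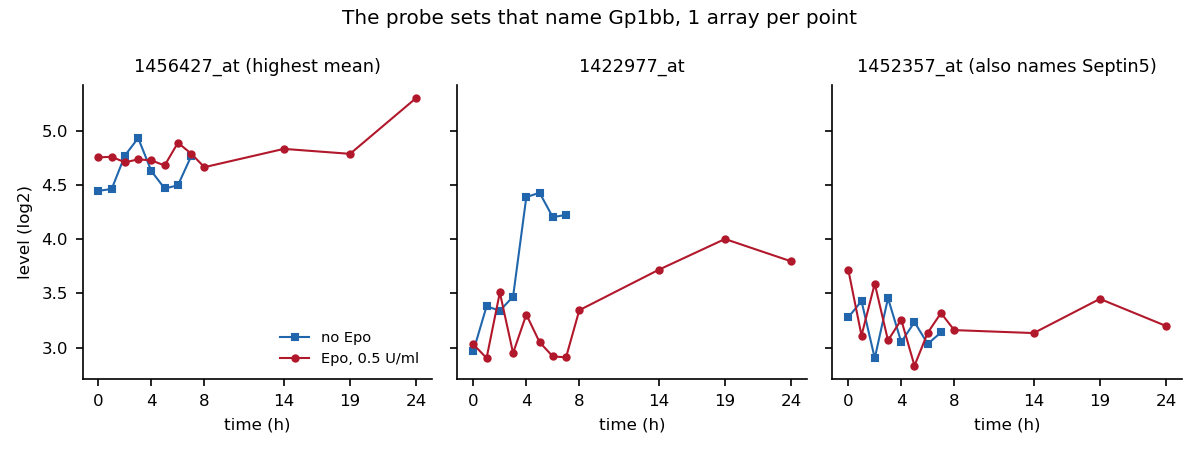
Log2 values (vertical axis) of the Gp1bb probe sets against hours of culture (horizontal axis), with and without Epo, 1 point an array. The brighter probe set stays between 4.45 and 5.31, while the dimmer one of the gene alone reaches 4.43 without Epo and stays at 3.51 or lower from 0 to 8 h with Epo.

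Gp6 encodes the platelet collagen receptor glycoprotein VI. Without Epo it read 3.74, 3.67, 3.91, 4.08, 3.59, 3.76, 3.83 and 3.83 from 0 to 7 h. The Epo arrays read 3.58, 3.87, 3.78, 3.64, 3.81, 3.86, 3.67, 3.72 and 3.45 from 0 to 8 h, and 4.14, 4.24 and 4.11 at the late hours. The late arrays were above every earlier array with or without Epo. Pf4 and Gp6 were the members whose 3 late arrays all exceeded all 0 to 8 h arrays under Epo, as did 11.3% of all genes.

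The late difference of Gp6 was 0.44 ± 0.11 (limma adjusted p = 0.0057), a 1.36-fold change, and it was called under the 21 alternatives in which it was tested, with adjusted p from 0.0030 to 0.048. No other comparison called Gp6, and between Epo and no Epo it differed by -0.04 (adjusted p = 0.74).

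Vwf encodes von Willebrand factor, the adhesive ligand of the glycoprotein Ib-IX-V complex, made by megakaryocytes and by endothelial cells. Without Epo it read 2.74, 2.72, 2.84, 3.09, 3.16, 3.36, 3.14 and 2.94 from 0 to 7 h. Under Epo the gene read 2.63, 3.00, 2.94, 3.28, 2.84, 2.58, 2.60, 2.73 and 2.89 from 0 to 8 h, and 3.35, 3.71 and 3.27 at the late hours. The late arrays were at or above the top of the earlier range under Epo, with the 24 h array just below that of 3 h.

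Its late difference was 0.58 ± 0.14 (limma adjusted p = 0.0058), a 1.50-fold change. Against 5 to 7 h without Epo the difference was 0.30 (adjusted p = 0.18), so that call was lost. Endothelial markers were given beside it: the mean log2 value of 10 endothelial genes ran from 3.51 to 3.97 at 1 to 8 h under Epo and from 3.76 to 4.24 at the late hours, and 2 of the 10, Esam and Lyve1, rose and 0 fell. Esam, an adhesion molecule of endothelial cells that platelets also carry, read 4.33 to 4.79 at 1 to 8 h and 4.62, 5.11 and 6.54 at 14, 19 and 24 h. Lyve1, a hyaluronan receptor of sinusoidal and lymphatic endothelium, read 3.02 to 3.44 and then 3.30, 3.92 and 3.94. Among the other 8, which had no call, Cdh5 read 3.29 to 4.02 and then 3.68, 3.84 and 3.61, and Pecam1 2.93 to 3.61 and then 3.75, 3.12 and 3.70. The part of these genes in the Vwf difference was not tested.

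Gp6 and Vwf are dim on these arrays, and dim probe sets shifted as a whole at the late hours. As a guide to dimness, 80 probe sets of olfactory and vomeronasal receptors, genes silent outside sensory tissue, had their 95th percentile between 3.73 and 4.52 over the arrays. Of the 9 genes, 5 had a mean above 4.52 (Pf4, Gp9, Gp1bb, Gp5 and Itga2b), with Gp1bb read from its brighter probe set. The dimmer Gp1bb probe set reached at most 4.43 and so stayed below 4.52 on every array. The median of those receptor probe sets was 2.54 at 1 to 8 h under Epo and 2.69 at the late hours. Genes below the median level had a median late difference of 0.15, brighter ones one of -0.15. The spread of all values within an array was 2.47 to 2.51 (SD) at 1 to 8 h and 2.43, 2.42 and 2.31 at 14, 19 and 24 h. Among the dimmer genes 17.6% were called higher. The part of this shift in the late differences of Gp6 and Vwf, 0.44 and 0.58, and of the dimmer Gp1bb probe set, 0.73, was not tested.

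Itga2b and Itgb3 encode the chains of the platelet fibrinogen receptor. Itga2b read 6.42, 6.61, 6.50, 6.36, 6.42, 6.14, 6.16 and 6.10 from 0 to 7 h without Epo. With Epo the values were 6.51, 6.34, 6.22, 6.36, 6.26, 6.57, 6.14, 5.98 and 5.99 from 0 to 8 h, and 6.44, 6.19 and 6.32 at the late hours. All 20 arrays lay within less than 1 log2 unit. The array with Epo was the lower in 6 of 7 matched hours and the higher at 5 h.

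Without Epo, Itga2b fell by 0.066 ± 0.023 per hour (limma adjusted p = 0.049), or -0.46 ± 0.16 over 7 h. That call was lost in 10 of 17 alternatives, with adjusted p from 0.022 to 0.151, among them the fits without the array of each hour from 1 to 7 h. The slopes of those 7 fits ran from -0.067 to -0.057 per hour. Its differences were -0.06 ± 0.10 with Epo (adjusted p = 0.69) and 0.08 ± 0.14 at the late hours (adjusted p = 0.67).

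Itgb3 read 4.17, 3.70, 4.15, 4.25, 4.11, 4.17, 3.97 and 4.17 without Epo. Under Epo it read 3.95, 4.01, 4.06, 4.09, 3.69, 4.14, 4.09, 4.06 and 3.78 from 0 to 8 h, and 4.32, 3.97 and 4.09 at the late hours. No comparison called Itgb3. Its late difference was 0.14 ± 0.12 (limma adjusted p = 0.41), and its further probe set lay between 3.06 and 3.94 with no call either. Neither chain of the integrin had a called late change.

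The count of calls between Epo and no Epo differed between the hours, for the 9 genes and for all genes. At 1 to 3 h alone, 0 of the 9 were called (limma), beside 16.9% of all genes. There 1 of the 9 was at an unadjusted p under 0.05, and Pf4 differed by 0.43 (adjusted p = 0.11). At 5 to 7 h alone, 4 of the 9 were called, beside 39.9% of all genes, which is near the share among the 9. There Pf4 was higher by 1.16 and Gp5 by 0.67, and Gp9 was lower by -0.60 and Vwf by -0.51 (adjusted p = 0.011 for Vwf). No difference between the slopes was called for any of these 4 genes.

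Other genes of megakaryocytes and platelets were taken from a list of 26 with a probe set of their own, and 7 of these had a mean above the dimness guide of 4.52. At the late hours under Epo, 8 of the 26 rose and 1 fell, beside 17.6% and 18.5% of all genes. The median difference was 0.14, beside 0.08 over all genes. Clec1b, the platelet receptor for podoplanin, was higher by 0.89 ± 0.16, F2rl2, a thrombin receptor of the protease-activated family, by 0.58 ± 0.15, and Tubb1, the tubulin of the platelet marginal band, by 0.57 ± 0.16 (limma adjusted p = 0.00070, 0.0079 and 0.014). Tubb1 had a mean above the guide, whereas Clec1b and F2rl2 were below it on every array, with highest values of 4.13 and 4.30 at 24 h under Epo. The part of the late shift of dim probe sets in the differences of Clec1b and F2rl2 was not tested. Clu, the granule protein clusterin, which hepatocytes also make, fell by 0.87 ± 0.18 (adjusted p = 0.0020). The mean of the 26 was 3.74 to 3.84 at 1 to 8 h and 3.83 to 4.05 at the late hours.

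Between Epo and no Epo over 1 to 7 h, 5 of the 26 were higher and 7 lower, beside 18.2% and 20.2% of all genes. Plek, the platelet substrate of protein kinase C, was lower by -1.76 ± 0.15, Tubb1 by -0.96 ± 0.12 and P2ry1, an ADP receptor, by -0.87 ± 0.12, while Clu was higher by 1.16 ± 0.09 (limma adjusted p at most 0.00018). Without Epo, 2 of the 26 rose and 3 fell over 0 to 7 h (13.3% and 15.4% of all genes), with Tubb1 up by 1.04 ± 0.20 and F13a1, the coagulation factor XIII A chain, at -1.74 ± 0.34 over the span (adjusted p = 0.0020 for each). With Epo, 0 rose and 2 fell (2.21% and 5.88% of all genes), and 1 was at an unadjusted p under 0.05 upward. F5 (coagulation factor V) stood at -1.49 ± 0.37 over 7 h (adjusted p = 0.020). Cd9 (a tetraspanin of the platelet surface) stood at -1.05 ± 0.28 over 7 h (adjusted p = 0.032). Under Epo, F5 was above the dimness guide at 0 h only, with 4.78, and read 2.64 to 3.72 at 1 to 7 h. F13a1 without Epo was also above it at 0 h only, with 5.26, and then read 3.24 to 4.48. All 8 hepatocyte genes fell over the same hours with Epo, and their part in the fall of F5 was not tested. Tubb1 shared with Gp9 a lower level under Epo and a higher one at the late hours, as values side by side.

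Transcription factors of the megakaryocyte and erythroid lineages were a list of 21. With Epo at 1 to 7 h, 12 of the 21 were lower and 0 higher in limma, beside 20.2% and 18.2% of all genes, with 0 at an unadjusted p under 0.05 upward. Gfi1b, a repressor needed in both lineages, was lower by -1.58 ± 0.13 and Gata1 by -0.72 ± 0.08 (adjusted p at most 3.8e-05). Fli1, an ETS factor that activates platelet genes, was lower by -1.36 ± 0.11 (adjusted p at most 3.8e-05). Gfi1b and Gata1 had means above the dimness guide, whereas Fli1 lay below it on every array of 1 to 7 h. There Fli1 read 3.24 to 4.32 without Epo and 2.36 to 2.81 with Epo. Late under Epo 5 rose and 6 fell, beside 17.6% and 18.5% of all genes. Nfe2, needed for platelet shedding, rose by 1.53 ± 0.30 (adjusted p = 0.0011), whereas Myb fell by 2.58 ± 0.32 and Cbfb, the partner of the RUNX factors, fell by 1.76 ± 0.17 (adjusted p at most 4.9e-05). The called members at the late hours moved in opposite directions, and several of the list serve erythroid cells too.

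Markers of other cells differed between the same arrays. From 14 h onward under Epo, where 17.6% of all genes rose and 18.5% fell, 6 of 8 erythroid genes rose and 0 fell. In the same arrays 7 of 8 hepatocyte genes fell, with a median of -3.06 and a list mean that went from 10.65 at 0 h to 5.04 at 24 h under Epo. Of 9 neutrophil genes 5 rose and 3 fell, of 9 macrophage genes 2 rose, of 8 mast cell and basophil genes 3 rose, and of 5 lymphoid genes 2 rose. Of the macrophage list 1 of 9 and of the mast cell list 1 of 8 had a mean above the dimness guide. The part of these changes in the megakaryocyte genes was not tested.

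**Figure D4:**
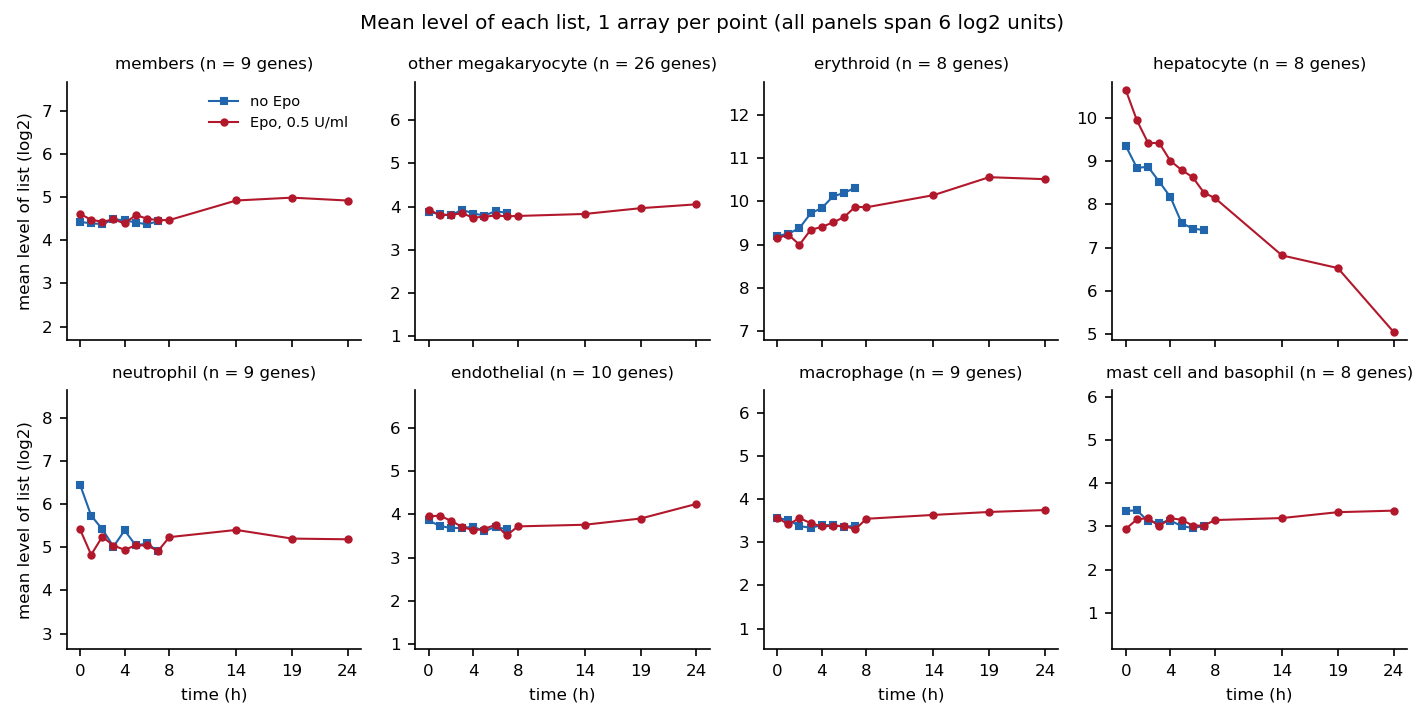
Mean log2 value of 8 gene lists, 1 panel a list (vertical axis, each spanning 6 log2 units) against hours of culture (horizontal axis), 1 point an array, with and without Epo. The hepatocyte list goes from 10.65 at 0 h to 5.04 at 24 h under Epo, while the mean of the 9 megakaryocyte genes goes from 4.61 at 0 h to 4.92 at 24 h. Between these arrays Pf4 was higher by 2.33 at 24 h, and Gp1bb, Gp6, Itgb3 and Vwf by 0.14 to 0.64. Gp5, Ppbp, Itga2b and Gp9 differed by -0.76, -0.42, -0.19 and -0.01.

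Over the 20 arrays, 4 of the 9 genes spanned at least 1 log2 unit (Pf4, Gp9, Gp5 and Vwf), beside 55.5% of all genes. The genes with the most similar course to Pf4, by Pearson r over the 20 arrays, were Krt15 (0.96), Chac2 (0.95) and Irgm2 (0.95). For Gp9 they were Ipp (0.90), Rassf7 (0.90) and Fbxl15 (0.86), for Gp5 Slc45a4 (0.86), Bsn (0.83) and Slc33a1 (0.82), and for Vwf Rbm33 (0.86), Abca7 (0.85) and Tac2 (0.83). No member was among the genes most like any of these 4. Between members, r ran from -0.54 for Vwf and Gp5 to 0.65 for Gp1bb and Pf4. These are descriptions over arrays that share treatments and hours.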

How the data were processed

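RNA of 20 mouse samples was measured on 20 arrays, and the authors' deposited values are log2 values between 1.37 and 14.6. Their summarisation and scaling are not given in the sources used. Of 45101 probe sets, 34958 named 1 gene, 932 several and 9211 none, and 64 controls were left out. 34754 matched RefSeq, and 0 symbols changed. The highest-mean probe set stood for each of 18193 genes.

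Differences were fitted with limma 3.58.1 (R 4.3.3; moderated test with an intensity trend), and p-values were adjusted over all genes by Benjamini-Hochberg, with calls under 0.05. Epo was compared with no Epo over 1 to 7 h with the hour as block. Slopes were fitted on the hour over 0 to 7 h, and on the matched differences over 1 to 7 h. The arrays of 14, 19 and 24 h were compared with 1 to 8 h under Epo. The scripts were tested on simulated data. Tables were made with pandas 2.3.3 and numpy 2.4.6 under Python 3.11.15, and plots with matplotlib 3.10.9.

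Members and lists were chosen with earlier results of these data known. From each supporting list up to 4 called genes with the largest change per comparison could be named, and for each member spanning at least 1 the 3 genes of highest Pearson r, without clone and predicted names. Alternatives covered normalization, centring, dim genes, probe sets per gene, the variance model, the use of 0 h, the hours and time scale, and leaving out each hour. Fitting every probe set that names a member was added after seeing the data. The number of arrays limits the precision.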

Additional observations from a re-analysis of the deposited data

Results flagged for a closer look

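For Itga2b, the matched difference at 5 h was 0.43 on the log2 scale, far from the other 6 hours, whose highest was -0.0045. For Ppbp, the array without Epo at 0 h read 2.58, apart from the next highest of that series at 2.43. Such gaps were looked for in 36 groups of arrays and found in 2, and chance alone gives about 1 in 20. For the dimmer Gp1bb probe set, the slope with Epo differed from the slope without by -0.22 per hour (limma adjusted p = 0.014), a tested difference between the series.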

How the results depend on the processing

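The late calls of Pf4 and Gp6 held under every alternative in which they were tested. Those of Gp9 and Vwf held in 20 of 22 and 20 of 21, and 2 of the 4 late calls were left when the late arrays were set against 5 to 7 h without Epo. Of 804 values of single genes under an alternative, 51 had the other sign, 47 of them called in neither comparison. In 4 a call was involved: Pf4 with Epo from its own 0 h (-0.79), Gp1bb with Epo as the mean of its probe sets (-0.37), and the dimmer Gp1bb probe set with Epo (-0.84) and in the difference of slopes (-0.22). The cause was not tested.

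Between Epo and no Epo, with 2 genes higher and 1 lower in the main comparison, the higher calls were 1 with the 0 h pair added, 0 from each series' own 0 h and 0 at 1 to 3 h. The lower calls were 2 with the mean of all probe sets, 0 from own 0 h, 0 at 1 to 3 h and 2 at 5 to 7 h. Over all genes 6981 were called, against 12 from own 0 h and 3071 at 1 to 3 h. For the difference of slopes, leaving out each hour gave 0 to 1 higher and 0 to 1 lower calls among the 9, and 1736 to 2693 over all genes (main 2769), and including 0 h gave 1 higher. Without Epo, higher calls were 1 with the mean of all probe sets (Gp1bb), 1 with log2(hour + 1) (Pf4) and 0 to 1 with each hour left out. The lower calls, 2 in the main comparison, were 1 after quantile normalization, 1 with probe sets without suffix, 1 over 1 to 7 h and 1 with log2(hour + 1). They were also 1, never 2, whichever hour was left out. With Epo, the 1 higher call became 0 with log2(hour + 1), and was 0 to 1 with each hour left out, with 915 to 1444 calls over all genes (main 1472). In the late comparison 6579 genes were called, against 2896 with 6 to 8 h as the early arrays and 4232 to 7255 with each array left out. Keeping only brighter genes left 3 of the 9 tested, so no count of members was taken there. Without the hour as block, the Epo comparison called the same 3 of the 9 genes and 6614 genes in all.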

Other observations

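Genes that switch platelet integrins to their binding state, link integrins to the cytoskeleton, or encode other integrin chains were a list of 23. With Epo at 1 to 7 h, 11 of the 23 were lower and 3 higher (limma), beside 20.2% and 18.2% of all genes. Vcl (vinculin) was lower by -1.48 ± 0.19, Itga4 by -1.18 ± 0.12, Itgb1 by -1.16 ± 0.10 and Flna (filamin A) by -0.99 ± 0.13 (adjusted p at most 0.00012). At the late hours under Epo 8 fell and 2 rose, beside 18.5% and 17.6% of all genes. Itgav fell by 1.43 ± 0.25 and Rasgrp2, the exchange factor that activates Rap1 in platelets, fell by 1.17 ± 0.40, while Itga4, which erythroid progenitors also use to bind their niche, was higher by 1.08 ± 0.20 (adjusted p at most 0.033). Rasgrp2 already fell over 0 to 7 h in both series, by 2.48 ± 0.36 with Epo and 1.58 ± 0.22 without. Fermt3 (kindlin-3) fell by 1.47 ± 0.15 without Epo over 7 h, and its slope differed between the series by 0.26 ± 0.033 per hour (adjusted p = 0.00012).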
